A study of Homo sapiens with 4 samples.

Results

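The 33 genes described here act in G2 phase and mitosis, and they were taken by name from a fixed list of cyclins, kinases, checkpoint proteins, spindle proteins and cytokinesis factors. All 33 were found among the 25688 genes of the deposited tables, and all 33 passed the filter for tested genes, a level of 1 FPKM or more in 2 libraries or more. FPKM is the number of fragments per kilobase of transcript, scaled to the mapped fragments of a library. The samples were 4 libraries of RNA recovered on streptavidin beads from DU-145 cells, an established human prostate cancer line. In the 2 control libraries the cells had been given an untagged miR-26a duplex at 60 nM. In the 2 biotin libraries they had been given, at the same dose, miR-26a duplexes with biotin at the 3′ end and a thiouridine at nucleotide 7 or at nucleotide 17, mixed together. Both groups therefore carried added miR-26a, and both were irradiated at 365 nm, which crosslinks thiouridine to nearby RNA. Biotin and thiouridine were always present or absent together, so their effects cannot be told apart. RNA from before the pull-out was not analysed here. A difference between the groups is thus a difference in recovered RNA, and fewer cells in mitosis, less RNA per cell and weaker recovery on the beads cannot be told apart.

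Passage through mitosis is driven by CDK1 bound to cyclin A or B, which is switched on by CDC25 phosphatases and reinforced by Polo-like and Aurora kinases. The spindle checkpoint then holds the anaphase-promoting complex, a ubiquitin ligase, inactive until every chromosome is attached to the spindle. Once released, the ligase destroys securin and the cyclins, sister chromatids part and the cell divides. The mRNAs of most of these proteins accumulate together in G2 phase, and their summed level is widely used as a measure of proliferation. MicroRNAs such as miR-26a bind mRNAs mainly through pairing of their seed, bases 2 to 8 from the 5′ end, with sites in the 3′ UTR.

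The mature miR-26a-5p of RefSeq (GRCh38.p14) is shown because its seed defines the site searched below and because both modified positions lie in it. The seed is in capitals, and bases 7 and 17 are both U in the unmodified RNA. The same mature sequence is encoded on chromosome 3 (37969413 to 37969434, plus strand) and on chromosome 12 (57824658 to 57824679, minus strand).
miR-26a-5p: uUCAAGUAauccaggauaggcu

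The libraries held an estimated 16030000 and 17830000 mapped reads (controls) and 17560000 and 23640000 (biotin). For a 1-kb transcript, 3 reads amount to 0.127 to 0.187 FPKM in these libraries, a limit that covers counting error only. Estimated reads per member and library ran from 121 (MAD2L1) to 8735 (UBE2C). Averaged over the libraries for each member, they had a median of 905 over the members. The epithelial keratins KRT7, KRT8, KRT18 and KRT19 were present in every library, between 20.7 and 84.1 FPKM. The epithelial markers EPCAM, CDH1 and ITGB4 were far lower, between 1.70 and 2.97 FPKM, and ITGA6 was between 8.01 and 12.7. Of the 10 epithelial markers CD44 (10.8 and 13.8 against 53.9 and 59.3 FPKM) and EGFR (15.9 and 16.7 against 31.6 and 37.3 FPKM) rose, 8 did not pass the test, and the list summed to 255 to 303 FPKM in the control group, against 282 to 306. The luminal prostate markers KLK3, KLK2 and FOLH1 were listed at 0 in all 4 libraries, and TMPRSS2 was below 1 FPKM. All 6 fibroblast and all 4 neuroendocrine markers were below 1 FPKM everywhere, and of 6 blood markers CD68 alone was above it (5.42 to 10.1 FPKM).

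The comparison of the biotin with the untagged pull-out asked which of these mRNAs were recovered in larger or smaller amounts with the tag. Recovery with the tag was higher for 7 of the 33 genes and lower for 11, and 15 did not pass the test (limma on log2(FPKM + 1), Benjamini-Hochberg adjusted over 9934 tested genes, threshold 0.05, two-sided). In either direction 18 of the 33 were called, against 22.5% of all tested genes. The increases were 21.2% of the 33 and the decreases 33.3%, against a background of 13.2% of all tested genes called higher and 9.31% called lower. Among the 4548 genes with a mean of at least 5 FPKM, fitted alone, 19.9% were higher and 17.7% lower, and of the 32 members among them 7 and 12 were (21.9% and 37.5%). The share of increases was thus near this second background, and that of decreases was above both. The median log2 fold change of the 33 was -0.21, and that of all tested genes was -0.06. The members did not move as a block: the increases reached 4.12 times the control mean (UBE2C), and the decreases went down to 0.458 times (TTK).

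**Figure D1:**
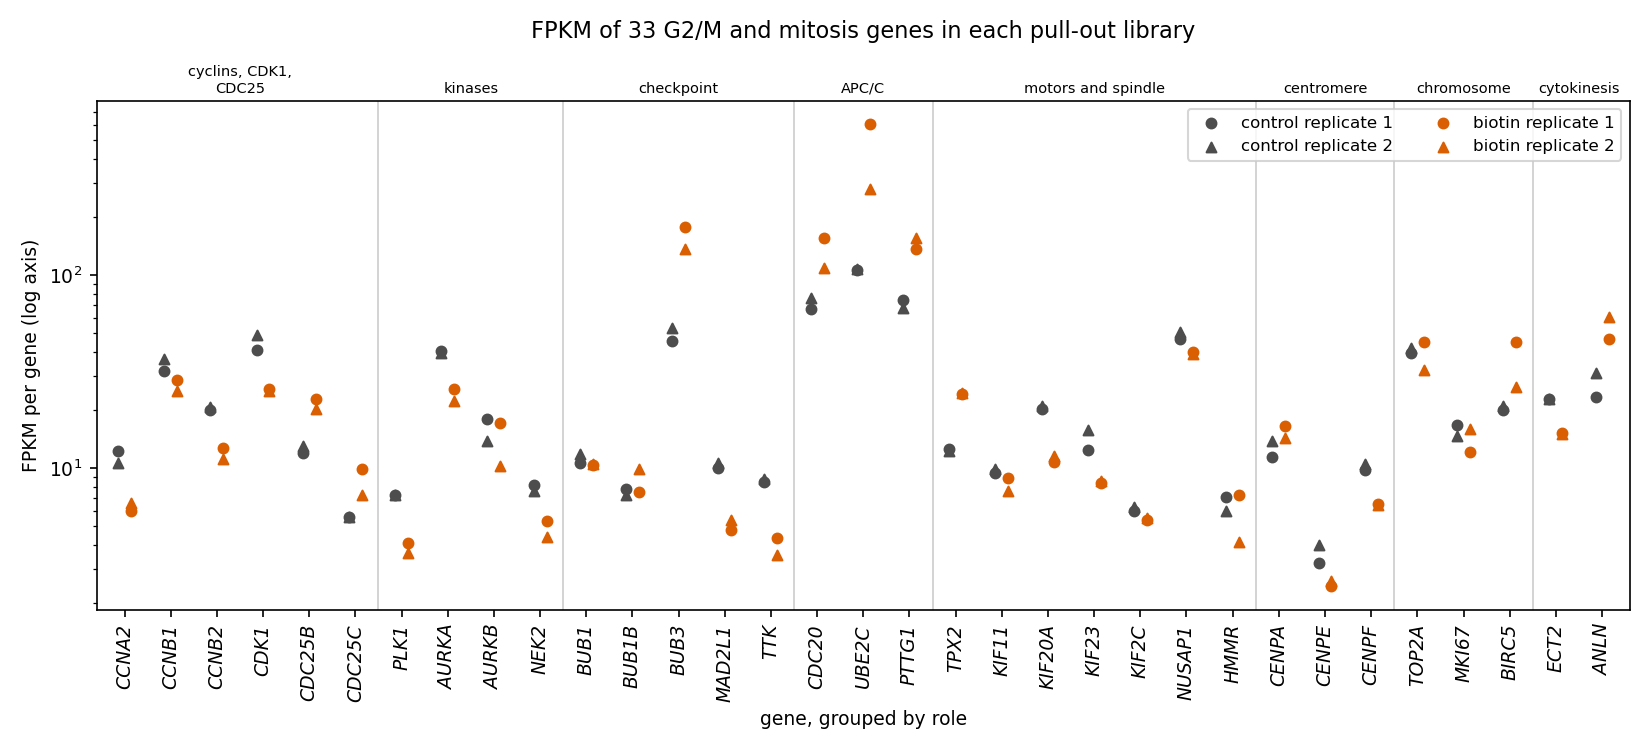
FPKM of each of the 33 genes (log axis) in the 4 libraries, with genes on the horizontal axis grouped by role; grey symbols are controls, orange symbols biotin libraries, circles replicate 1 and triangles replicate 2. UBE2C, BUB3, CDC20 and PTTG1 lie highest and are higher in both biotin libraries, while most of the kinases and cyclins lie lower there.

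The groups did not overlap in 28 of the 33 genes: both biotin values were above both controls in 10 and below both in 18. Over all tested genes these shares were 29.4% above and 37.7% below, so that separation alone was common. With so few libraries the smallest two-sided p of an exact permutation test is 0.333, so every call rests on the spread that limma pools over genes. Few of the members' calls held when a library was left out, as the last section gives, and calls over all genes were fewer too. The median log2 fold change of the 33 was -0.17 without control replicate 1 and -0.25 without control replicate 2. Over all tested genes these medians were -0.09 and -0.03. Without biotin replicate 1 the median of the 33 was -0.33, and without biotin replicate 2 it was -0.16, against -0.07 and -0.06 over all tested genes. Before adjustment (p below 0.05) 6 members were higher and 13 lower without control replicate 1, where 15.0% and 16.5% of all tested genes were. Without control replicate 2 these unadjusted counts were 7 and 10, against 17.4% and 12.7% of all tested genes.

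Paired values below are control replicates 1 and 2 against biotin replicates 1 and 2, and fold changes are biotin minus control on the log2(FPKM + 1) scale. The cyclins and the CDK1 switch were divided in direction. CCNA2, the cyclin of S phase and early mitosis, was at 12.2 and 10.6 FPKM against 5.97 and 6.57. CCNB2, a mitotic cyclin, was at 20.0 and 20.8 against 12.7 and 11.2 FPKM, and CDK1, the kinase that both cyclins activate, at 40.8 and 49.1 against 25.8 and 25.0. All 3 fell to between 0.550 and 0.586 times the control mean, with log2 fold changes of -0.77 ± 0.16 (SE) for CCNA2, -0.73 ± 0.17 for CCNB2 and -0.79 ± 0.19 for CDK1 (limma adjusted p = 0.0232, 0.0298 and 0.0317). CCNB1, the other B-type cyclin, was at 32.0 and 36.6 FPKM against 28.5 and 25.0, lower in both biotin libraries but not past the test (-0.35, 95% interval -0.80 to 0.11). CDC25B, a phosphatase that activates CDK1 at entry into mitosis, rose instead, from 11.9 and 13.0 to 22.8 and 20.3 FPKM (0.75 ± 0.17, limma adjusted p = 0.0290). Its relative CDC25C was at 5.58 and 5.58 FPKM against 9.88 and 7.29 (0.53 ± 0.18, limma adjusted p = 0.0839), which did not pass.

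Of the 4 mitotic kinases 3 fell and 0 rose, where 9.31% of all tested genes fell and 13.2% rose. A group of 4 is too small for its share to be read as a trait of mitotic kinases. PLK1, which acts in mitotic entry, centrosome maturation and cytokinesis, was at 7.23 FPKM in both controls and at 4.12 and 3.65 with the tag. AURKA, the Aurora kinase of the spindle poles, went from 40.5 and 39.7 to 25.8 and 22.2 FPKM, and NEK2, a kinase of centrosome separation, from 8.14 and 7.61 to 5.34 and 4.39. In each of the 3 both biotin values lay below both controls. The log2 fold changes were -0.76 ± 0.15 for PLK1, -0.72 ± 0.18 for AURKA and -0.60 ± 0.16 for NEK2 (limma adjusted p = 0.0182, 0.0377 and 0.0432). AURKB, the kinase of the chromosomal passenger complex, overlapped between the groups, at 17.9 and 13.9 FPKM against 17.2 and 10.3. Its log2 fold change of -0.23 had a 95% interval from -0.89 to 0.43, which holds both 0 and the change of AURKA.

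The spindle checkpoint held both the deepest decreases and 1 of the largest increases. TTK, the kinase that starts checkpoint signalling at unattached kinetochores (hg38, chromosome 6, 80004605 to 80042527), was at 8.52 and 8.76 FPKM against 4.35 and 3.56. MAD2L1, the checkpoint protein that binds CDC20, was at 10.0 and 10.7 against 4.80 and 5.39 FPKM. Both fell to less than 0.5 times the control mean, with log2 fold changes of -0.97 ± 0.16 for TTK and -0.90 ± 0.15 for MAD2L1 (limma adjusted p = 0.0108 and 0.0125). BUB3, the protein that brings the BUB1 kinases to kinetochores (hg38, chromosome 10, 123154244 to 123165370), moved the other way, from 45.6 and 53.3 to 177 and 137 FPKM. That is 3.17 times the control mean, a log2 fold change of 1.64 ± 0.22, with the lowest adjusted p of the 33 genes (0.00575, limma). Its partners BUB1 (10.6 and 11.9 FPKM against 10.4 and 10.6) and BUB1B (7.76 and 7.29 against 7.53 and 9.95) did not pass the test. Their 95% intervals, -0.48 to 0.29 and -0.26 to 0.62, do not reach the change of BUB3.

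The 3 members grouped here as enzyme, activator and substrate of the anaphase-promoting complex all rose, CDC20 least firmly, where 13.2% of all tested genes rose. A group of 3 is too small for its share to be read as a trait of that complex. Other members tied to that ligase stand in other groups, among them the cyclins, which it also destroys, and MAD2L1, which binds CDC20. CCNA2, CCNB2 and MAD2L1 fell, so the pathway did not rise as a whole. UBE2C, the ubiquitin-conjugating enzyme of that ligase (hg38, chromosome 20, 45812576 to 45816957), was the most abundant of the 33 genes and went from 107 and 108 to 605 and 277 FPKM. Both biotin values were far above the controls, and they also differed from each other by more than the controls did. The log2 fold change was 1.93 ± 0.37, with a 95% interval of 1.03 to 2.82 (limma adjusted p = 0.0178). CDC20, the activator that recruits substrates to the complex, was at 66.5 and 75.7 FPKM against 155 and 109 (0.86 ± 0.24, limma adjusted p = 0.0483). The call of CDC20 was kept in 5 of 14 alternatives, the fewest of the 18 called genes, with limma adjusted p up to 0.188. It was lost with either other pseudocount, with no filter on low values, with the main transcript, with the replicate block and with each library left out. PTTG1, the securin that the complex destroys at anaphase, was at 74.5 and 67.5 against 136 and 155 FPKM (1.02 ± 0.20, limma adjusted p = 0.0176). PTTG1 has near-identical copies elsewhere in the genome, so its value is uncertain where reads could be shared among them. These 3 genes carried much of the summed level of the list. The sum over all 33 was 788 and 829 FPKM against 1552 and 1118, and over the other 30 it was 540 and 578 against 656 and 577.

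**Figure D2:**
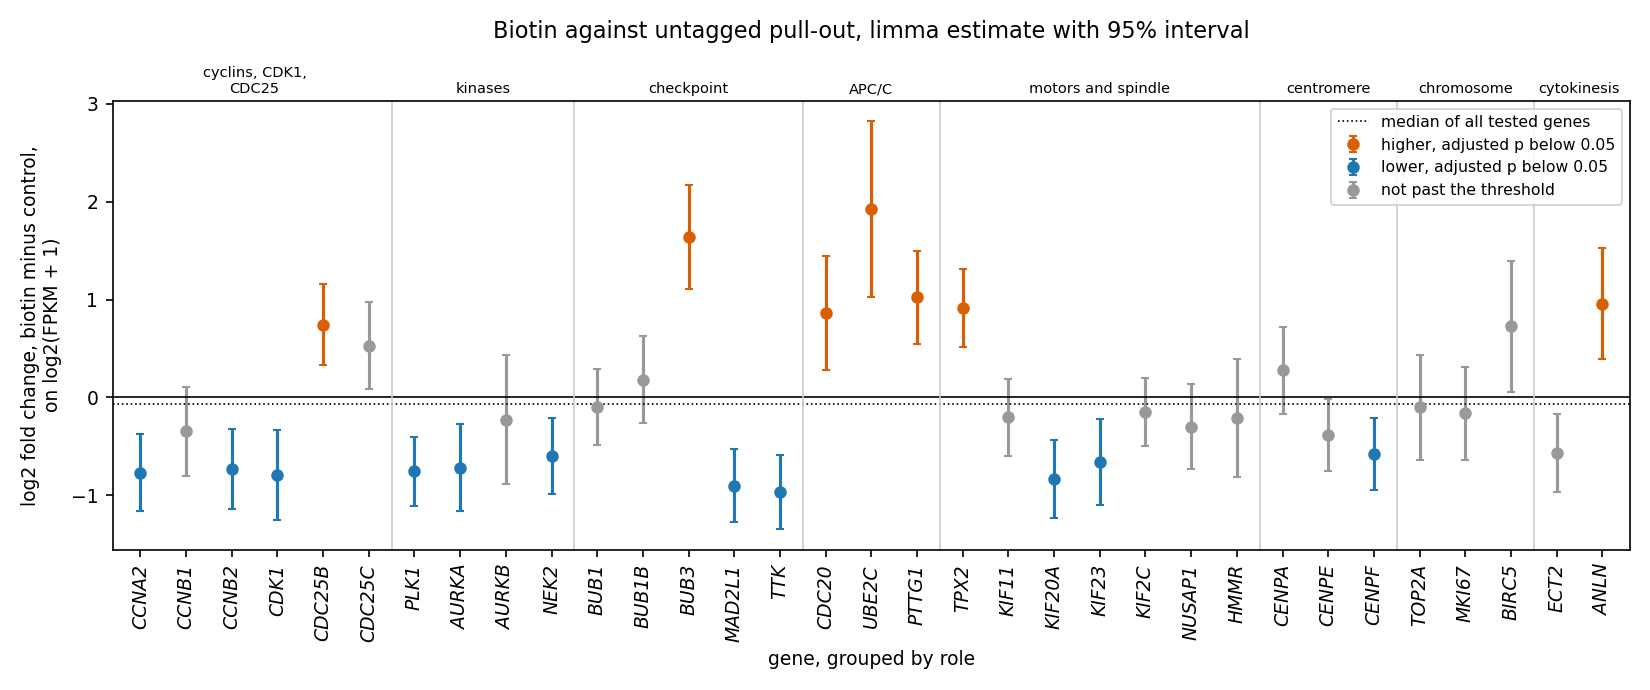
Log2 fold change of each gene, biotin minus control, on the log2(FPKM + 1) scale, with its 95% interval from limma; orange and blue mark genes past the threshold, grey those that were not, and the dotted line the median of all tested genes (-0.06). The 3 genes grouped under the anaphase-promoting complex and BUB3 lie above 0. The genes past the threshold below 0 include 3 of 4 kinases, 3 of 6 genes of the cyclin group, TTK and MAD2L1. Of all tested genes 13.2% were higher and 9.31% lower.

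Among 7 spindle proteins 1 rose and 2 fell (14.3% and 28.6%), against 13.2% and 9.31% of all tested genes. TPX2, which targets Aurora A to the spindle and nucleates microtubules, went from 12.6 and 12.3 to 24.1 and 24.5 FPKM (0.91 ± 0.16, limma adjusted p = 0.0147). The replicates of TPX2 were close within both groups. AURKA, its kinase partner, fell over the same libraries. KIF20A, a kinesin of the central spindle, was at 20.2 and 20.9 FPKM against 10.7 and 11.5 (-0.83 ± 0.16, limma adjusted p = 0.0188). KIF23, a kinesin of the same structure, was at 12.4 and 15.8 against 8.39 and 8.54 FPKM (-0.66 ± 0.18, limma adjusted p = 0.0460). KIF11, which pushes the spindle poles apart, was at 9.42 and 9.92 against 8.93 and 7.66 FPKM, and KIF2C, which takes microtubules apart at kinetochores, at 6.04 and 6.28 against 5.39 and 5.53. HMMR, a spindle and hyaluronan-binding protein, overlapped between the groups (7.10 and 6.02 FPKM against 7.26 and 4.15). Neither these 3 nor NUSAP1, a microtubule-bundling protein at 46.7 and 50.9 against 39.9 and 39.0 FPKM, passed the test, and their log2 fold changes lay between -0.30 and -0.15.

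The centromere, chromosome and cytokinesis genes held 1 decrease and 1 increase among 8 genes, near the 9.31% lower and 13.2% higher of all tested genes. CENPF, a large protein of the outer kinetochore, fell from 9.83 and 10.5 to 6.51 and 6.43 FPKM (-0.58 ± 0.15, limma adjusted p = 0.0403). CENPE, the kinetochore kinesin and the least abundant member, was at 3.23 and 3.99 against 2.44 and 2.60 FPKM and did not pass (limma adjusted p = 0.115). CENPA, the histone variant that marks centromeres, was at 11.4 and 13.8 against 16.6 and 14.4 FPKM, also without passing. TOP2A, the topoisomerase that untangles chromosomes, overlapped at 39.4 and 42.1 against 44.7 and 32.1 FPKM, as did the proliferation marker MKI67 at 16.7 and 14.7 against 12.2 and 15.9. Their log2 fold changes of -0.10 and -0.16 had 95% intervals within -0.64 to 0.44. BIRC5, or survivin, of the passenger complex, was at 20.0 and 20.9 FPKM against 45.2 and 26.2, a difference of 0.73 ± 0.28 that did not pass (limma adjusted p = 0.104). ANLN, a scaffold of the cleavage furrow, rose from 23.3 and 31.1 to 46.6 and 60.9 FPKM (0.96 ± 0.23, limma adjusted p = 0.0341). ECT2, which activates the small GTPase of the furrow, was at 22.7 and 22.9 against 15.3 and 15.0 FPKM (-0.56 ± 0.16) and missed the threshold (limma adjusted p = 0.0545).

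Biotin replicate 1 was above biotin replicate 2 in 21 of the 33 genes, UBE2C, CDC20, BUB3 and BIRC5 among them, against 51.4% of all tested genes. Control replicate 1 was above control replicate 2 in 11, against 37.5% of tested genes. Without biotin replicate 1, UBE2C was at a log2 fold change of 1.36 and BUB3 at 1.45, and without biotin replicate 2 they were at 2.49 and 1.82.

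Single transcripts were also fitted, beside the gene sums. Of the 33 genes 16 had only 1 RefSeq transcript above 0, and 17 had several, among which the authors' software divided the reads. Of 50 member transcripts tested in a separate fit, 1 was higher and 2 were lower, against 2.8% and 1.18% of 11999 transcripts (limma, adjusted p below 0.05). Calls were lost in this fit also where the gene had only 1 transcript above 0. TPX2 kept its log2 fold change of 0.91, with a limma adjusted p of 0.0584. Fewer calls here are thus not a measure of how steady a transcript was. The 1 transcript called higher was NM_004725 of BUB3, from 21.7 and 22.7 to 72.7 and 67.9 FPKM. The other BUB3 transcript, NM_001007793, was at 23.9 and 30.6 against 104 and 69.1. Both transcripts of BUB3 were thus higher in both biotin libraries. The 2 decreases were transcripts listed at 0 in both biotin libraries, NM_018098 of ECT2 (7.31 and 9.81 FPKM in the controls) and NM_001243142 of NUSAP1 (12.0 and 25.2 FPKM). The remaining ECT2 transcript, NM_001258315, was at 15.4 and 13.1 against 15.3 and 15.0 FPKM, so the difference in the ECT2 sum lay in the transcript listed at 0. For NUSAP1 the opposite exchange was seen in NM_016359, listed at 0 in both controls and at 39.9 and 11.2 FPKM in the biotin libraries, while the gene sum did not pass the test. UBE2C had 5 transcripts above 0, of 558 to 887 bases. NM_007019 was at 33.02 and 51.8 against 401 and 85.3 FPKM, and NM_181800 at 25.8 and 52.4 against 189.6 and 124. Both were higher in both biotin libraries, and neither was the higher of the pair in every library. NR_104036 of UBE2C was listed at 44.7 FPKM in control replicate 1 and at 0 in the other 3 libraries. These transcripts share most of their sequence, and how the division of reads among them bears on the values was not tested.

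**Figure D3:**
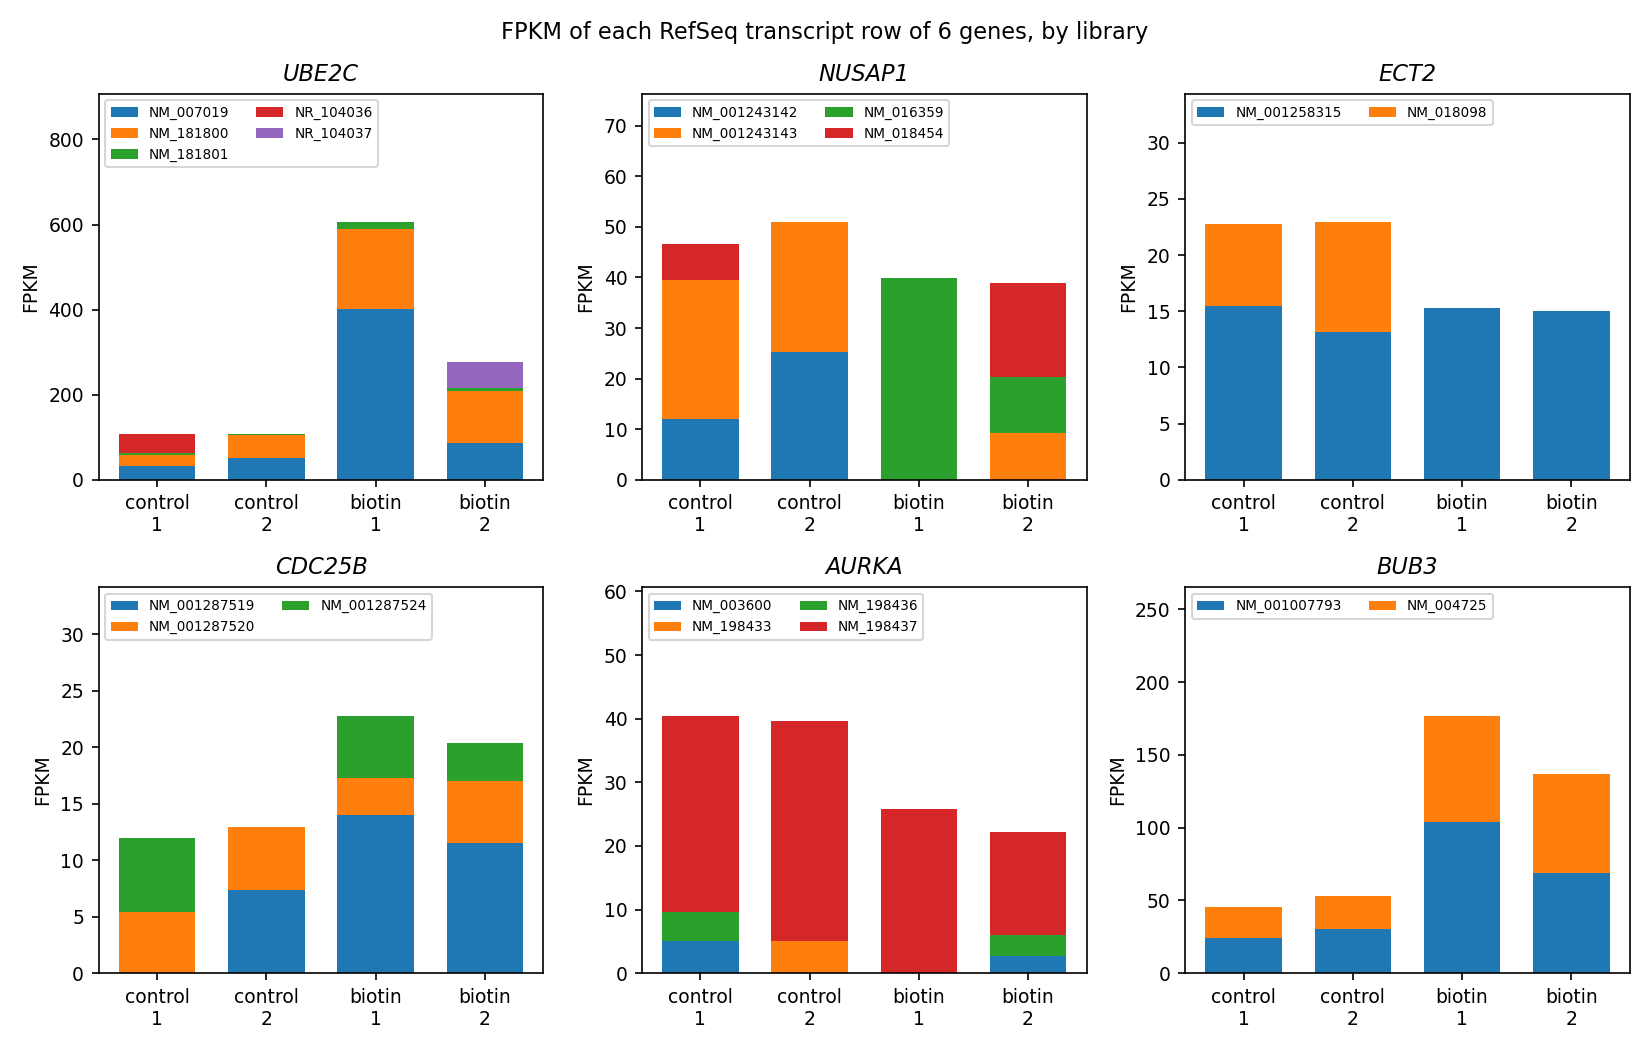
FPKM of each RefSeq transcript row above 0, stacked by library, for 6 genes with several such rows, chosen after their values were seen. Both BUB3 transcripts are higher in the biotin libraries, ECT2 has 1 transcript listed at 0 there, and the UBE2C, NUSAP1, CDC25B and AURKA rows change places between replicates of a group.

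Seed sites were then looked up, since the list was not chosen for them. The site TACTTGA, complementary to the seed and read on the mRNA strand only, was searched in GENCODE 29 3′ UTRs (GRCh38, the build of the files). It was found in 3 of the 33 genes (9.09%) and in 1125 of 9378 searched genes (12.0%). The members' 3′ UTRs were shorter than usual, with a median of 618 bases against 981.5. The 6-base form ACTTGA, which lies within the longer ones, was in 6 members (18.2%) and in 34.5% of searched genes, and the 8-base form TACTTGAA in 1 member (3.03%) and in 5.44%. Counting every annotated transcript of a gene, 4 members had the 7-base site (12.1%), AURKA being the addition, against 15.7% of searched genes.

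The 3 sites are printed because they stood in genes that moved in different directions. The site is in capitals, each stretch is read 5′ to 3′ along the mRNA, and all are in the 3′ UTR. TTK lies on chromosome 6 (chr6:80042414-80042442, plus strand), TPX2 on chromosome 20 (chr20:31801204-31801232, plus strand) and MAD2L1 on chromosome 4 (chr4:120057001-120057029, minus strand).
TTK: gctcttgtgtaatcTACTTGAcatcattt
TPX2: tgcctgagaaagcaTACTTGAcaactgtg
MAD2L1: cttttggtcacaaaTACTTGAacccctcc
TTK and MAD2L1 fell and TPX2 rose. The MAD2L1 site is the 8-base form, but it begins at base 3103 of a 3′ UTR of 4510 bases in GENCODE, beyond the 1436-base transcript of the deposited tables. UBE2C, BUB3, CDC20, PTTG1, CDC25B and ANLN, the other members that rose, had no 7-base site in the searched 3′ UTR. A site here is a match of letters, and binding was not measured at it.

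Base composition and level of the genes were also described. The median GC content of the transcript was 47.0% for the 7 genes that rose, 41.8% for the 11 that fell and 43.2% for the other 15, against 48.7% over searched genes. The ranges overlapped widely, at 40.0% to 59.3% for the 7 and 35.6% to 57.3% for the 11. Across the 33 genes the rank correlation of the log2 fold change with GC content was 0.42, and over all 9378 searched genes it was 0.25. With transcript length the rank correlation was -0.20 in the members and 0.19 over all searched genes, and with mean level it was 0.47 and -0.04. These points share the same 4 libraries and the mean level contains the biotin values, so the figures are descriptions. The part of base composition or transcript length in the differences was not tested.

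Other genes of mitosis, a list of 113 that does not include the 33, was fitted in the same way. Of 107 tested, 14 were higher (13.1%) and 12 lower (11.2%), near the 13.2% and 9.31% of all tested genes, with a median log2 fold change of -0.22. The groups were separate upwards in 27 and downwards in 59 of the 107, against 29.4% and 37.7% of all tested genes. Scaling to the upper quartile gave 15 higher and 20 lower, quantile normalization 13 and 19, and median-of-ratios scaling 17 and 7. Over all tested genes the shares were, in the same order, 13.1% and 11.6%, 12.8% and 12.1%, and 14.9% and 7.60%. DLGAP5, a protein that stabilises spindle fibres, rose from 15.4 and 15.2 to 189 and 135 FPKM (3.30 ± 0.22, limma adjusted p = 0.000723). GTSE1, a microtubule-associated protein of G2 phase, rose from 4.96 and 5.02 to 39.1 and 29.6 FPKM (2.55 ± 0.19), and DSN1, a subunit of the MIS12 kinetochore complex, from 6.28 and 6.59 to 33.2 and 32.6 (2.19 ± 0.16). These 3 increases were larger than that of UBE2C and held their calls whichever of the 4 libraries was omitted. FZR1, the other activator of the anaphase-promoting complex beside CDC20, rose from 7.04 and 11.9 to 37.5 and 35.3 FPKM (1.88 ± 0.25). FOXM1, a transcription factor that activates many genes of G2 and mitosis, rose from 6.69 and 5.41 to 17.3 and 19.5 FPKM (1.46 ± 0.18, limma adjusted p = 0.00413). SMC3 of the cohesin ring (1.37 ± 0.22), ANAPC2, the cullin subunit of the complex (1.23 ± 0.21), and PKMYT1, an inhibitory kinase of CDK1 (1.06 ± 0.22), were the next increases.

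The decreases of that list were smaller. ANAPC15, a subunit of the anaphase-promoting complex, was at 1.61 and 1.80 FPKM against listed at 0 in both biotin libraries, so no fold is given. CKS2, a small protein that binds CDK1, fell from 46.9 and 42.3 to 19.1 and 19.0 FPKM (-1.18 ± 0.18, limma adjusted p = 0.00805), and ANAPC11, the RING subunit of the complex, from 57.4 and 59.9 to 29.7 and 28.9 (-0.98 ± 0.18). CKAP2 (-0.85 ± 0.17) and ASPM (-0.84 ± 0.18), both spindle proteins, ZWILCH of the checkpoint (-0.78 ± 0.19), RAD21 of cohesin (-0.78 ± 0.16) and CDCA8 of the passenger complex (-0.73 ± 0.19) followed. Of the 15 tested further genes of the anaphase-promoting complex 2 rose and 2 fell (13.3% each), and 11 did not pass. Over all tested genes 13.2% were higher and 9.31% lower. Kinetochore and checkpoint genes counted 3 higher and 5 lower of 24 (12.5% and 20.8%). Cohesin and separase genes counted 3 and 1 of 12 (25% and 8.33%).

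**Figure D4:**
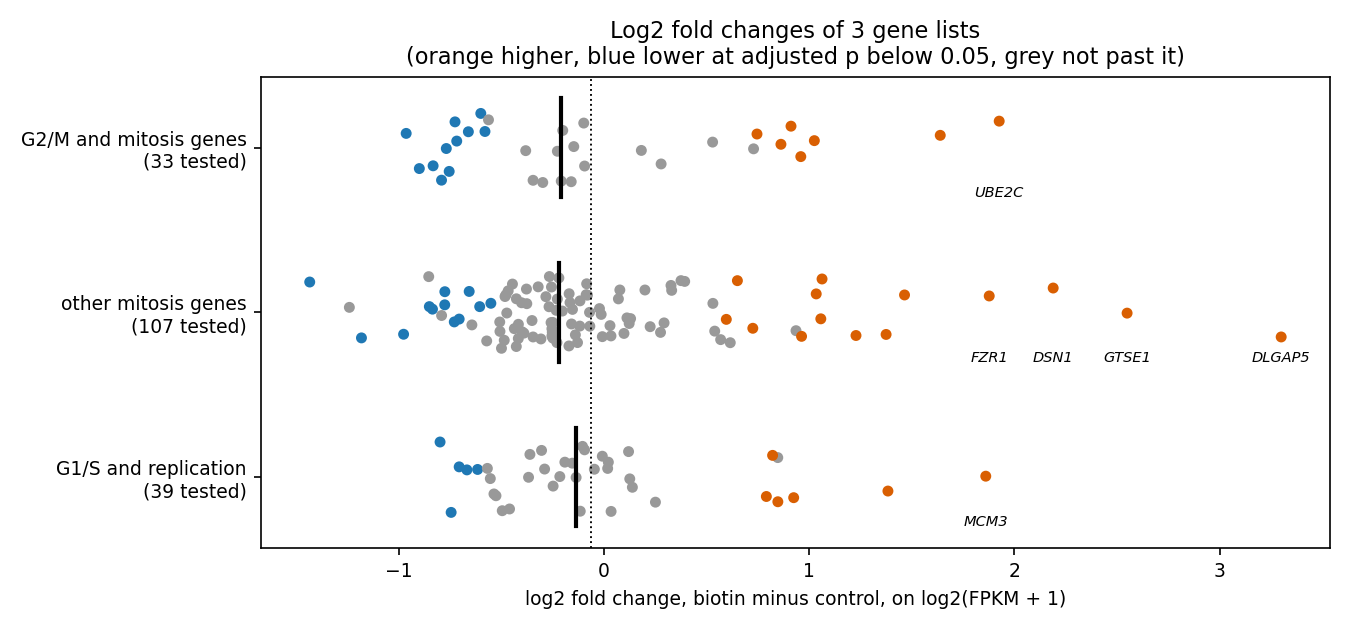
Log2 fold changes of the tested genes of 3 lists, 1 point per gene, spread vertically only to separate them; thick bars are the list medians (-0.21, -0.22 and -0.14) and the dotted line is the median of all tested genes (-0.06). DLGAP5, GTSE1 and DSN1 lie farthest to the right.

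Genes of the G1/S transition and DNA replication, expressed earlier in the cycle, were the other comparison list. Of 39 tested 6 were higher (15.4%) and 5 lower (12.8%), with a median of -0.14, near the 13.2% and 9.31% of all tested genes. The decreases numbered 6, 7 and 2 under upper-quartile, quantile and median-of-ratios scaling. Of all tested genes 11.6%, 12.1% and 7.60% were lower under these. MCM3 (1.86 ± 0.18) and MCM7 (0.92 ± 0.19) of the replicative helicase, RFC5 of the clamp loader (1.38 ± 0.18), ORC6 of the origin recognition complex (0.85 ± 0.17), the reductase subunit RRM2 (0.82 ± 0.18) and the licensing factor CDC6 (0.79 ± 0.15) rose. The kinase activator DBF4 (-0.80 ± 0.14), the thymidylate enzyme TYMS (-0.75 ± 0.20), the repair enzyme UNG (-0.71 ± 0.19), the kinase CDK2 (-0.67 ± 0.17) and the primase subunit PRIM1 (-0.62 ± 0.17) fell. No test of a difference between the lists was made.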

How the data were processed

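Streptavidin pull-out RNA from DU-145 cells was sequenced as single reads of 50 bases from TruSeq Stranded Total RNA libraries, per the labels' protocols. The submitters' processing notes name FastQC 0.10.1, cutadapt, TopHat2 2.0.9, Cufflinks 2.1.1, Cuffdiff and hg38. Their roles and settings, the annotation and strand use were not given in the sources used here, so reads of overlapping or near-identical genes could go to either. The authors deposited FPKM per RefSeq transcript (53209 rows per library), per the file headers, with coverage and transcript length, also per the file headers. Coverage was used only to estimate depth and the reads per gene.

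Of 46699 accessions 98.6% were matched to symbols (RefSeq, then GENCODE 29), and FPKM was summed per gene. No row of the 33 genes had a failed status. Short structured RNA genes and 22 genes with a failed or excess-data row were left out. Genes at 1 FPKM or more in 2 libraries or more were fitted with limma 3.58.1 in R 4.3.3 (variance trend, 2 residual degrees of freedom, prior 4.2) on log2(FPKM + 1), a pseudocount that understates changes of low genes. The code was tested on simulated data. Replicates of a group are biological per the series design. Libraries correlated at r = 0.971 (control) and 0.970 (biotin) within groups and 0.876 to 0.883 between them, across genes.

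The members, lists and tests were chosen with earlier results of these data known. All members are described. Of the other lists up to 8 called genes per direction with the largest change are named. Alternatives were 2 pseudocounts, 2 filters, 3 scalings, no variance trend, the main transcript of each gene, the replicate number as a block, and each library left out. Values of 2 marker genes are not reported here.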

Additional observations from a re-analysis of the deposited data

How the results depend on the processing

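Each of the 18 called members kept its direction under all 14 alternatives, but the calls were fragile: with 1 of the 4 libraries omitted at a time, 15 of the 18 never passed, and BUB3, UBE2C and TTK passed in 2, 2 and 1 of these fits. Leaving out a library gave 0 to 3 members higher, 0 to 1 lower and a median of -0.33 to -0.16, other mitosis genes 4 to 9, 1 to 3 and -0.22 to -0.16, G1/S genes 0 to 4 and 0 to 0, and all genes 193 to 680, 32 to 227 and -0.095 to -0.031. With no filter on low values 2 members were higher and 3 lower (6.06% and 9.09%), against 653 and 231 of 16091 genes (4.06% and 1.44%, median -0.0082). Other mitosis genes counted 8 and 3 in that fit, and G1/S genes 2 and 0. With the main transcript of each gene 1 member was higher and 0 lower (3.03% and 0%), against 423 and 152 of 9554 genes (4.43% and 1.59%). Other mitosis genes counted 3 and 2 there (median -0.17), and G1/S genes 2 and 0. The 1 member was CDC25C, which had no call in the main fit, and 0 of the 18 called members kept their calls. Scaling to the upper quartile, by median of ratios and by quantiles gave 20, 7 and 19 other mitosis genes lower, with medians of -0.24, -0.16 and -0.25. Median-of-ratios scaling gave 2 G1/S genes lower and a median of -0.0059 over all genes, and quantile normalization gave -0.098. Pseudocounts of 0.1 and 5 put the median of other mitosis genes at -0.26 and -0.11. Among all calls 58.6% were increases, against 53.0%, 66.2% and 51.4% under the 3 scalings, and among the members' calls 38.9% against 36.8%, 41.2% and 36.8%. The cause of these shifts was not tested. The labels do not say that a replicate number marks a shared batch, and the deviations of same-numbered libraries correlated at 0.0026 over 9934 genes. With the replicate block 5 members were higher and 5 lower (15.2% each), against 1078 and 534 of all tested genes (10.9% and 5.38%). In that fit 1 G1/S gene was lower. Among genes without a call the sign changed for AURKB (-0.57 without biotin replicate 1, 0.12 without biotin replicate 2), HMMR (-0.55 and 0.13), TOP2A (0.13 without biotin replicate 2), MKI67 (0.020 and -0.34) and, with the main transcript, ECT2 (0.082). With the main transcript the called genes ANAPC11 (1.96) and CKAP2 (0.47) also changed sign, without passing. Depth limited MAD2L1 most, with 121 to 273 estimated reads per library.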
